A study of Mus musculus with 2 samples.

Results

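Alveolar macrophages, the resident phagocytes of the air sacs, were examined in mouse lungs after silica. A cell counted as one when at least 1 read each was found for 3 or more of the 5 genes Marco, Ear1, Plet1, Atp6v0d2 and F7. It could hold reads of no more than 3 of Lamp3, Slc34a2, Cxcl15, Chil1, Sfta2, Hc and S100g, which are 7 genes mostly of the alveolar and airway epithelium. These genes were read in the cells themselves, so their levels are the basis of the choice and not a result. The rule was applied to hashtagged cells that passed limits of 200 detected genes and 25% mitochondrial reads. It gave 1510 alveolar macrophages among 32445 such cells, 937 of 17227 from wild-type (WT) lungs and 573 of 15218 from CCR2-/- lungs (CCR2KO).

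Both groups were C57BL/6 mice that had received silica into the trachea at 400 mg/kg, and no untreated lung is part of the comparison. Each genotype is 1 library that pools lungs of days 3, 7 and 21, so genotype and cartridge cannot be told apart. Within a library, suspensions carried antibody hashtags (tags), 9 in WT and 8 in CCR2KO. The sources used here do not give the day or the animal behind a tag, so days are not compared, ages are not given, and every p-value measures the spread between tagged suspensions. Levels are CPM, the usual scaling of a gene's reads to the total reads of a tag's alveolar macrophages, with that total adjusted by TMM, and are compared between genotypes and not between genes. Changes are CCR2KO minus WT on the log2 scale, with adjusted p-values from edgeR's quasi-likelihood test over all 11712 genes tested.

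Alveolar macrophages take up inhaled particles and recycle surfactant lipid. They depend on the growth factor GM-CSF and on the lipid-sensing factor PPARγ, and in the healthy lung they maintain themselves largely without monocytes. Silica crystals that they engulf damage the lysosome and trigger the inflammasome. CCR2 is the chemokine receptor that classical monocytes need to leave the bone marrow, and monocytes that enter an injured lung can take on alveolar macrophage features.

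The alveolar macrophages were read deeply. The typical cell had 85237 reads and 2541 genes in WT, and 92010 reads and 2363 genes in CCR2KO (medians). Every tag held at least 33 of them, and a tag's members together had between 2997898 and 14530481 reads. When each cell was thinned to 5000 reads, which left out none, they showed 1293 ± 64.0 detected genes in WT (SD, n = 9) and 1239 ± 69.9 in CCR2KO (n = 8, two-sided exact permutation p = 0.116). The 2 tables share 318 cell numbers, none of them of an alveolar macrophage. Scrublet scores marked 2.67% of the alveolar macrophages in WT and 2.97% in CCR2KO as doublets, and these were kept in the main results.

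Genes of alveolar macrophages that the rule did not use were present in both genotypes. Chil3, a secreted chitinase-like protein, had a read in 98.6% of the cells in WT and 97.7% in CCR2KO. In B cells, which should lack it, the shares were 38.9% and 27.5% at median depths of 15431 and 15301 reads. After thinning to 5000 reads the Chil3 shares were 90.2% and 93.2% in alveolar macrophages and 17.5% and 9.41% in B cells. Ear2, a ribonuclease of the same family as the rule gene Ear1, was read in 89.6% and 81.8% of alveolar macrophages and in 6.11% and 3.06% of B cells. Siglecf, the lectin by which these cells are usually sorted, was read in 31.2% and 24.4%, and in 17.6% and 15.5% after thinning.

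Alveolar macrophages were set beside interstitial macrophages, which are the C1q-positive macrophages of the lung tissue. Interstitial macrophages were taken as cells with reads of at least 3 genes of their own list and at most 1 of the 5 rule genes, under the same limit on epithelial genes, 1088 in all and 787 of them from WT. Over both genotypes Fabp1, a fatty acid carrier, was 1150-fold higher in alveolar macrophages, Krt79, a keratin, 569-fold, Perp, a membrane protein, 139-fold, and Car4, a carbonic anhydrase at the cell surface, 22.9-fold. In interstitial macrophages Fabp1 was only at 0.0717 CPM in WT and 0.133 in CCR2KO, and Krt79 at 0.235 and 0.124. The size of these 2 folds is therefore loosely set. Chil3 was 47.9-fold and Ear2 40.7-fold higher, Siglecf 18.1-fold, and Pparg, which encodes PPARγ, 10.6-fold. Itgax and Mrc1, also genes of alveolar macrophages, separated the classes little, at 1.92-fold and 1.33-fold. In the other direction Lyve1, an endocytic receptor, was 35.1-fold, Pf4, a platelet-type chemokine, 26.5-fold, Cx3cr1, the fractalkine receptor, 23.3-fold, and C1qa 12.4-fold higher in interstitial macrophages. These genes are on the list by which the interstitial macrophages were chosen. Since both classes were chosen on genes of these same cells, the folds describe them and carry no test.

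Of the 21 genes on the identity list, none was called between the genotypes, and their log2 changes had a median of 0.07, beside 0.01 over all genes tested. Siglecf had a lowest, median and highest tag of 6.84, 65.4 and 121 CPM in WT and of 15.8, 46.1 and 178 CPM in CCR2KO. For Car4 the same 3 values were 918, 1200 and 1631 CPM in WT and 515, 1394 and 1823 CPM in CCR2KO. The genotypes overlapped almost wholly for both genes. Pparg was 114 ± 37.0 CPM in WT (n = 9) and 139.8 ± 22.7 in CCR2KO (n = 8), a log2 difference of 0.30 (SE 0.18) that did not pass (adjusted p = 0.705). The integrin Itgax (CD11c), the mannose receptor Mrc1, the cytokine Il18, the transporter Slc7a2, the scavenger receptor Olr1 and the lipid droplet protein Cidec lay between -0.16 and 0.31 as well. The most negative change on the list was that of Wfdc21, a secreted protease inhibitor-like protein, with tags at 537, 677 and 769 CPM (lowest, median, highest) in WT and 305.2, 428 and 667 in CCR2KO (log2 change -0.56, SE 0.14, adjusted p = 0.0815). Ltc4s, the leukotriene C4 synthase, followed at -0.44 (adjusted p = 0.444) and Bhlhe41, a repressor needed for alveolar macrophage identity, at -0.39 (adjusted p = 0.636). Trim29 had the most positive change, 0.41 (adjusted p = 0.51). Kcnip4 had too few reads to be tested.

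**Figure D1:**
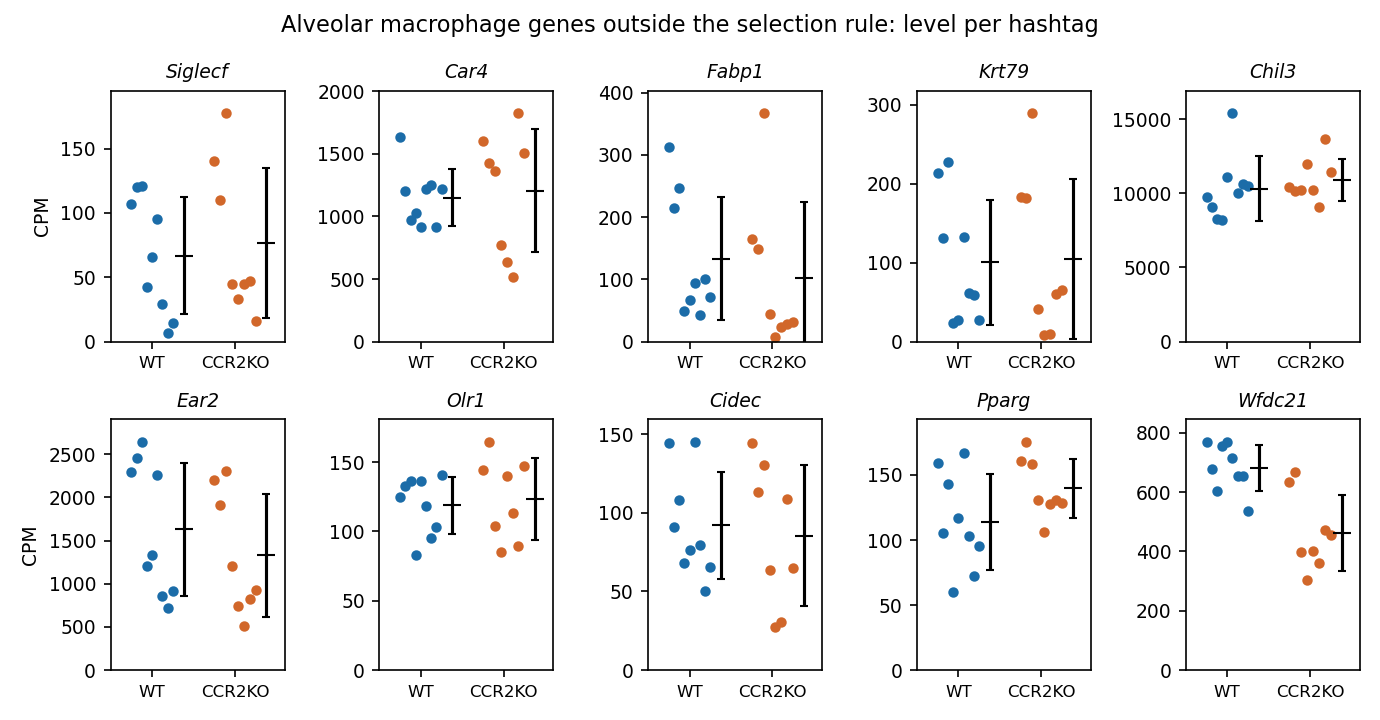
Levels in CPM (vertical axis, linear from 0) of 10 alveolar macrophage genes that the rule did not use; each point is 1 tag, blue for WT (9) and orange for CCR2KO (8), and the black bar is the mean ± SD. The genotypes overlap in every panel, and Wfdc21 is the one with most CCR2KO tags below the WT tags.

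Among the rule genes, given with no test, Marco, a scavenger receptor that binds silica and other particles, had tags at 337, 574 and 1469 CPM (lowest, median, highest) in WT and 919.5, 1468 and 2156 in CCR2KO. It was read in 57.4% of alveolar macrophages in WT and 78.0% in CCR2KO. The other rule genes differed less. Atp6v0d2, a subunit of the lysosomal proton pump, was 1413 ± 170 CPM in WT and 1417 ± 174 in CCR2KO. Plet1, a surface protein, stood at 890.5 ± 155 and 872 ± 224 CPM, F7, a coagulation factor, at 772 ± 159 and 754 ± 102 CPM, and Ear1 at 404.5 ± 274 and 336 ± 266 CPM.

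The threshold on markers cut through a gradient. Cells with 2 of the 5 rule genes, just outside, numbered 675 in WT and 310 in CCR2KO, and alveolar macrophages with exactly 3 numbered 206 and 104. Chil3 was read in 79.8% and 62.6% of the former and in 94.2% and 88.5% of the latter, Siglecf in 2.22% and 0.645% and in 9.71% and 10.6%. The limit on epithelial genes removed 95 of 1032 cells with 3 or more markers in WT (9.21%) and 150 of 723 in CCR2KO (20.7%). The removed cells had a median of 174488 reads in WT, beside 85237 in those kept, and Scrublet marked 8.42% of them in WT and 5.33% in CCR2KO. After thinning, Cxcl15, one of the 7 genes, was read in 6.72% of WT and 8.90% of CCR2KO alveolar macrophages and in 7.85% and 11.1% of B cells. At equal depth these shares were not above those of cells that should lack the gene.

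Markers of other cells were also read in alveolar macrophages. Sftpc, the surfactant protein of type 2 epithelium, was read in 96.5% and 98.6% of them, and after thinning in 39.5% and 46.6%, beside 38.0% and 50.1% of B cells. At least 3 monocyte genes were read in 25.3% of the alveolar macrophages in WT and in 5.93% in CCR2KO, and at least 3 interstitial macrophage genes in 15.3% and 20.1%. The summed level of the 10 monocyte genes ran from 278.5 to 623 CPM over the WT tags and from 63.1 to 183 CPM over the CCR2KO tags, which do not overlap, and no gene of that list was at 0 in either genotype. Over the 10 interstitial genes the range was 144 to 1205 CPM in WT and 393.5 to 1767 in CCR2KO, also with none at 0. For the B cell list the sums stayed at 1.22 to 82.7 CPM over the WT tags and 2.87 to 75.3 over the CCR2KO tags. The fibroblast list had higher sums, 484 to 5430 CPM in WT and 251.8 to 4038 in CCR2KO, and all 7 of its genes had a negative change. At least 3 fibroblast genes were read in 80.4% and 78.9% of alveolar macrophages, at least 3 neutrophil genes in 28.6% and 21.6%, and at least 3 endothelium genes in 14.3% and 5.76%. Changes were negative for 5 of 6 endothelium genes and 4 of 4 type 1 epithelium genes tested. They were positive for 7 of 9 surfactant and type 2 genes and 3 of 3 club and ciliated cell genes. The part of these reads in the results below was not tested, other than by leaving out the cells concerned.

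Alveolar macrophages made up a lower mean share of all kept cells in CCR2KO, a difference that did not pass the test, and nearly the same share of leukocytes. Of all kept cells they were 2.13%, 5.92% and 8.74% (lowest, median and highest tag) in WT and 2.00%, 3.85% and 5.18% in CCR2KO. The means were 5.35 ± 2.08% (n = 9) and 3.73 ± 1.01% (n = 8), with a two-sided exact permutation p of 0.0619, adjusted over the 2 shares 0.124. WT tags 7 (2.49%) and 8 (2.13%) lay near the lowest CCR2KO tag, and the other 7 WT tags had 4.33% or more. With WT replicate 8 left out the difference was -2.03 points (adjusted exact permutation p = 0.0283), and with WT replicate 7 left out -1.99 points (adjusted exact permutation p = 0.0389). These are the 2 lowest WT tags. In the 15 other tests with 1 tag left out the difference did not pass (adjusted exact permutation p from 0.0944 to 0.237). With all tags, but each cell thinned to 5000 reads before the rule, the difference was -0.661 points (adjusted exact permutation p = 0.3665). Of kept cells with a read of the leukocyte gene Ptprc, 12.4 ± 3.48% in WT and 12.4 ± 2.32% in CCR2KO were alveolar macrophages (adjusted exact permutation p = 0.962). The interval between the lowest and highest tag was 6.43% to 18.5% in WT and 8.37% to 15.98% in CCR2KO. Shares of cells recovered from digested lung do not count the cells of a lung.

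**Figure D2:**
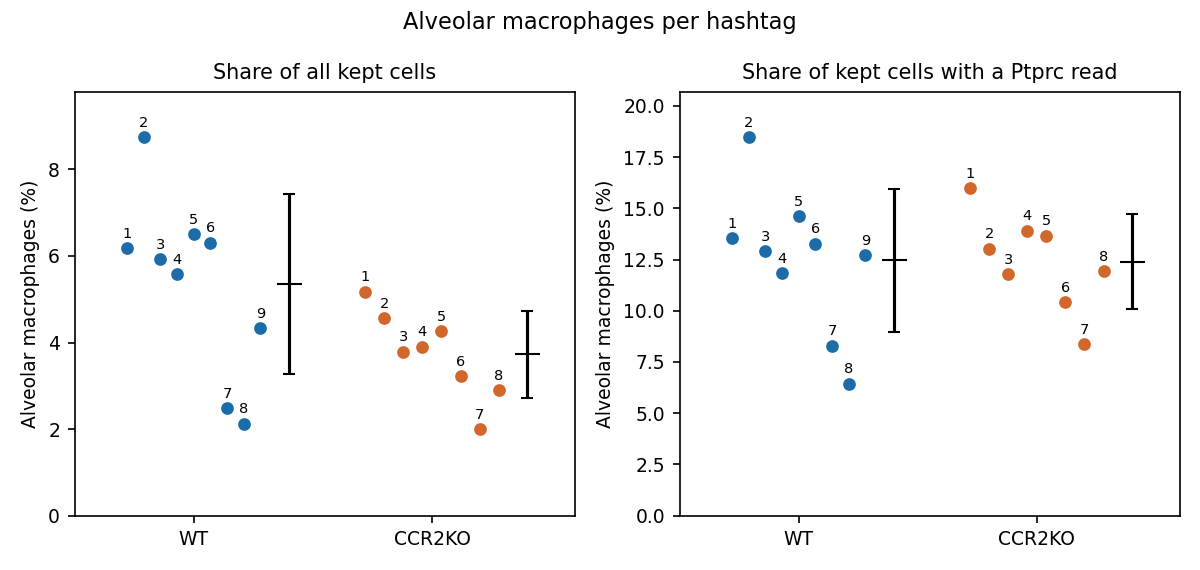
Alveolar macrophages as a percentage of all kept cells (left) and of kept cells with a Ptprc read (right); each numbered point is 1 tag, and the bar is the mean ± SD. The numbers are those of the tables and stand for no day; in the left panel WT tags 7 and 8 lie near the lowest CCR2KO tag, and in the right panel the genotypes overlap throughout.

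The deleted gene was nearly lost from the alveolar macrophages. Ccr2 had tags at 3.42, 25.7 and 51.1 CPM (lowest, median, highest) in WT and at 0, 0.673 and 5.99 CPM in CCR2KO. The ranges overlapped through WT tag 8 and CCR2KO tag 5, and 7 of 8 CCR2KO tags were below every WT tag. The log2 change was -4.11 (SE 0.74, adjusted p = 0.0114), and the call held in 17 of 17 fits with 1 tag left out. The gene spans 124101918 to 124109140 on chromosome 9 (GRCm38.p6). A Ccr2 read was found in 14.5% of the cells in WT and 3.32% in CCR2KO. Of B cells, 2.79% in WT and 0 of 425 in CCR2KO held one, which allows a share of up to 0.706% by counting error alone. The deleted part of the gene is not given in the sources used here, so the level checks the labels only as far as reads fall in that part.

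Monocyte genes, the adhesion gene Cd99 and a group of ribosomal genes fell in CCR2KO alveolar macrophages. The lysosomal genes Ctsl and Gusb, the protease inhibitor Serpinb6a, β-actin and the immune receptors Pira1 and Pira2 rose. In all, 14 genes rose in CCR2KO alveolar macrophages and 28 fell, that is 0.12% and 0.239% of the genes tested and 0.359% together. The rule gene Marco is 1 of the 14. Its level helped to choose the cells, so its call is not a result, and its values stand above as a description. The counts of the 14 given below were not redone without it. The tags of the genotypes did not overlap for 8 genes above WT (0.0683%) and 43 below WT (0.367%). Scaled with upper quartile factors, 7 rose and 43 fell. Left out 1 at a time, the tags gave between 6 and 18 higher and between 20 and 42 lower genes. The higher count was under 10 without WT replicate 2 (7), 3 (8), 6 (8), 7 (6), 8 (9) or 9 (9), and without CCR2KO replicate 4 (8), 5 (7) or 6 (6). Without the cells that held 3 or more monocyte or interstitial genes, 633 were left in WT and 440 in CCR2KO, and 3 genes rose and 11 fell, of which 1 and 10 belonged to the 14 and the 28. With at most 1 epithelial gene allowed per cell, 0 rose and 12 fell.

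The genes that fell included 3 monocyte genes. Of the 10 monocyte genes, 3 fell, Ccr2 among them, and all 10 had a negative change, with a median of -1.49. In interstitial macrophages the same list had a median of -2.10 and in all other kept cells of -0.99. Ly6c2, the surface marker of classical monocytes, had tags at 3.88, 105 and 199 CPM in WT and 0.930, 1.59 and 20.3 CPM in CCR2KO (log2 change -4.01, SE 0.73, adjusted p = 0.0116). It was high in 7 of the WT tags and low in WT tags 8 and 9, of which tag 8 lay within the CCR2KO range. With same-numbered tags, not known to be paired, taken as blocks, Ly6c2 missed the threshold. Plac8, a protein of myeloid and lymphoid precursors and monocytes, had tags at 83.3, 145 and 270 CPM in WT and 5.82, 25.4 and 86.3 CPM in CCR2KO (log2 change -2.25, SE 0.42, adjusted p = 0.0124). In CCR2KO, 1 cell held 23.7% of all Ly6c2 reads, and after thinning 8.32% of WT and 1.40% of CCR2KO alveolar macrophages had a Ly6c2 read, beside 3.66% and 2.59% of B cells. Ms4a4c, another monocyte gene, ran from 3.65 to 53.7 CPM over the WT tags and from 0 to 7.75 over the CCR2KO tags (log2 change -2.98, adjusted p = 0.238).

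When the cells with 3 or more monocyte or interstitial genes were left out, the log2 change was -1.87 for Ccr2 (adjusted p = 0.911), -1.78 for Ly6c2 (adjusted p = 0.995) and -1.42 for Plac8 (adjusted p = 0.885). The cells were left out on these same genes, which by itself brings the genotypes closer. All 3 genes were also lower in all other kept cells of the CCR2KO library, by -4.89, -2.06 and -1.33 on the log2 scale. In that comparison 5.5% of 19073 genes were called higher and 7.09% lower. After thinning, a Ccr2 read was found in 5.34% of WT and 0.524% of CCR2KO alveolar macrophages, the latter at the floor of 3 counts. Fewer such cells or less RNA per cell can each lower a summed level and a share of cells with a read. Which of them lies behind these values was not tested.

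Cd99, an adhesion protein used by leukocytes that cross vessel walls, fell with and without the cells that carried monocyte or interstitial genes. Its tags stood at 229, 257 and 351 CPM in WT and at 71.9, 142 and 171 CPM in CCR2KO, and the genotypes did not overlap (log2 change -0.94, SE 0.14, adjusted p = 0.00188). Without the cells that carried monocyte or interstitial genes the change was -1.07 (adjusted p = 0.00354). H2afj, a histone variant, fell by 0.84 on the log2 scale from a mean of 114 ± 24.7 CPM to one of 63.5 ± 20.4 (adjusted p = 0.0455), a call held in 3 of 17 fits with 1 tag left out. Cd99 was lower in all other kept cells too (log2 change -0.93), whereas H2afj was not called there (-0.15, adjusted p = 0.291). Of the remaining lower genes outside the ribosome, Lypla2, a thioesterase that removes lipid anchors from proteins, fell by 1.25 on the log2 scale (adjusted p = 0.00841) and Pwwp2a, a chromatin protein, by 1.22 (adjusted p = 0.0163). Lst1, a leukocyte transcript, fell by 1.45 (adjusted p = 0.0439, held in 3 of 17 fits). Cdc14a, a phosphatase, fell from 10.2 to 0.354 CPM (adjusted p = 0.0114), and unlike these it had a change of only -0.07 in all other kept cells. These 4 were named after their values were seen.

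The ribosomal genes that fell did so by small steps and not in alveolar macrophages alone. Rps29 had tags at 1296, 1431 and 1663 CPM in WT and 752, 874 and 943 CPM in CCR2KO, with no overlap (log2 change -0.74, SE 0.07, adjusted p = 4.239e-06). Rps28 fell by 0.58 and Rpl35 by 0.59 on the log2 scale, and Rpl38 and Rps27 by 0.47 and 0.52. Reads of the ribosomal RNAs, whose many genome copies share reads, fell as well, Rn28s1 from 770 ± 94.8 to 381 ± 50.7 CPM and Rn45s from 3544 ± 436 to 2301 ± 287 CPM, with Rn18s at a log2 change of -0.54. Of 84 ribosomal protein genes, a list added after the values were seen, 9 fell and 74 had a negative change, with a median of -0.13, which stayed negative under every scaling (-0.12 to -0.19). In all other kept cells the median was -0.14, in B cells -0.22 and in interstitial macrophages -0.07. All 28 genes that fell in alveolar macrophages had a negative change in all other kept cells. There 26 were called, among a background of 7.09% of 19073 genes called lower. In interstitial macrophages 26 of 28 had a negative change and 12 were called, among a background of 0.435% lower. In B cells, where 0.103% of 6783 genes were called lower, 6 of the 24 tested there were called.

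**Figure D3:**
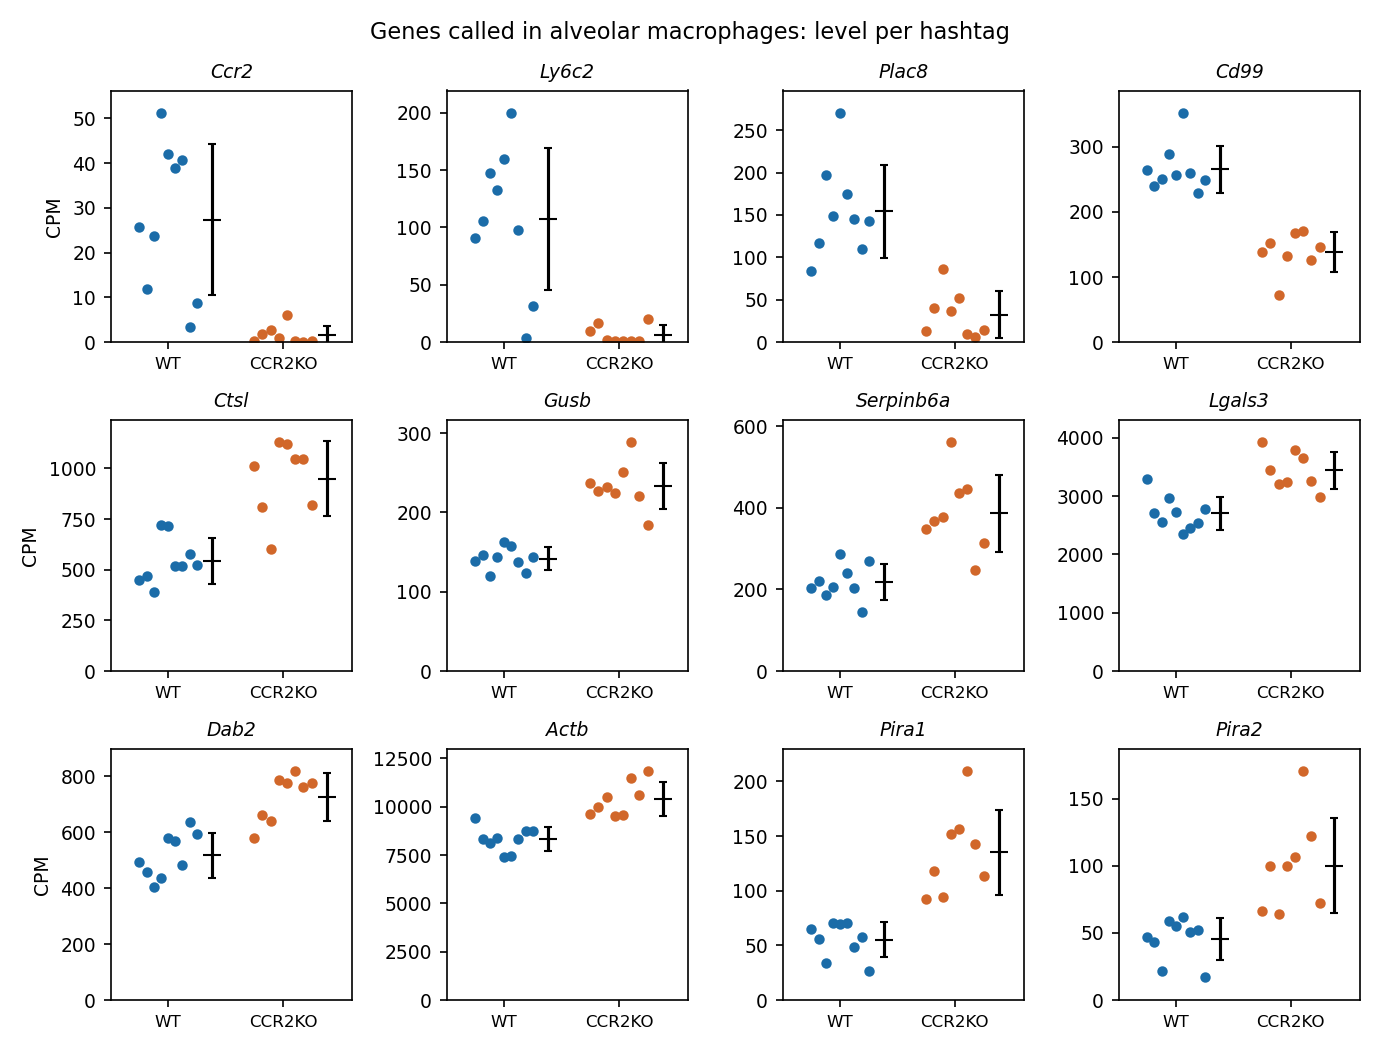
Levels in CPM (vertical axis, linear from 0) of 12 genes called in alveolar macrophages; each point is 1 tag, blue for WT (9) and orange for CCR2KO (8), and the black bar is the mean ± SD. Cd99, Gusb, Actb, Pira1 and Pira2 show no overlap between genotypes, while for Ccr2 and Ly6c2 the lowest WT tags reach into the CCR2KO range.

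The genes that rose included enzymes of the lysosome. Ctsl, the protease cathepsin L, had tags at 389, 520 and 720 CPM in WT and 604, 1028 and 1128 CPM in CCR2KO (log2 change 0.81, SE 0.14, adjusted p = 0.00709). For Ctsl, 7 of 8 CCR2KO tags lay above every WT tag. Gusb, the lysosomal β-glucuronidase, had tags at 120, 144 and 163 CPM in WT and 185, 230 and 288 CPM in CCR2KO, with no overlap (log2 change 0.72, SE 0.10, adjusted p = 0.00101). Both calls held in 17 of 17 fits with 1 tag left out. Atp6v1b2, a subunit of the proton pump that acidifies lysosomes, rose by 0.56 (adjusted p = 0.0327, held in 4 of 17 fits). Without the cells that held monocyte or interstitial genes the change was 0.42 for Ctsl (adjusted p = 0.255) and 0.53 for Gusb (adjusted p = 0.451).

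The other risen genes had varied roles. Serpinb6a, an inhibitor of serine proteases, had tags at 144, 205 and 286 CPM in WT and 248.6, 373 and 560 CPM in CCR2KO (log2 change 0.83, SE 0.15, adjusted p = 0.0114). Dab2, an adaptor for endocytosis, rose by 0.49 (adjusted p = 0.038, 5 of 17 fits) and Lgals3, the galectin that marks damaged lysosomes, by 0.35 (adjusted p = 0.0405, 3 of 17 fits). Lgals3 tags were at 2352, 2705 and 3291 CPM in WT and 2993, 3354 and 3922 CPM in CCR2KO. Actb, the cytoskeletal β-actin, rose by 0.32 (adjusted p = 0.0163), with no overlap of its tags, and Ctnnb1, β-catenin, by 0.55 (adjusted p = 0.0469, 1 of 17 fits). In interstitial macrophages 0.306% of 10798 genes were called higher, among them Dab2 (log2 change 0.95) and Gusb (0.98). Of the 14 risen genes 12 were tested there, 9 had the same sign and 3 were called. In all other kept cells, where 5.5% of 19073 genes were called higher, 10 of 13 had the same sign and 5 were called. In B cells, where 0.0147% of genes were called higher, 5 of 9 had the same sign and 0 were called.

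Pira1 and Pira2 encode activating receptors of the paired immunoglobulin-like family on myeloid cells, which recognise MHC class I molecules. Both rose in CCR2KO. Pira1 had tags at 26.8, 58.2 and 70.6 CPM in WT and 92.3, 131 and 209 CPM in CCR2KO (log2 change 1.28, SE 0.20, adjusted p = 0.00373). Pira2 had tags at 17.6, 50.7 and 61.7 CPM in WT and 64.2, 99.9 and 170 CPM in CCR2KO (log2 change 1.14, SE 0.25, adjusted p = 0.0465). The genotypes did not overlap for either gene. Neither was called in interstitial macrophages, where the changes were -0.17 and -0.11, but the difference between the classes did not pass its own test (adjusted p = 0.401 and 0.578).

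The genes of this family are near copies, and the 250 bases before the start of Pira1 and Pira2 are shown because they make this plain. They come from RefSeq on GRCm38.p6 and lie on the minus strand of chromosome 7, for Pira1 at chr7:3739918-3740167 and for Pira2 at chr7:3845052-3845301. Capitals mark the letters GAGGAAGT, a match to the purine-rich motif of ETS factors such as PU.1, which was searched on both strands and occurs in this window in 2.44% of 32851 promoters.
Pira1: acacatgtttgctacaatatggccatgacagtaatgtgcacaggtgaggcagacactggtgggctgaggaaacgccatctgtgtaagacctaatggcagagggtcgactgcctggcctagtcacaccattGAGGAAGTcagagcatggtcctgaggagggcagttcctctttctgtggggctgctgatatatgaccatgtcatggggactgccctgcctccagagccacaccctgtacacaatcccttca
Pira2: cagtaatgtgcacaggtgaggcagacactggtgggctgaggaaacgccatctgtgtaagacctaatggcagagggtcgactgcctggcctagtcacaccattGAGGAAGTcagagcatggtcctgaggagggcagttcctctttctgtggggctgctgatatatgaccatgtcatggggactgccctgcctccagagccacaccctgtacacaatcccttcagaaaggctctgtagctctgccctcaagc
Shifted by 28 bases against each other, the 2 stretches are identical over all 222 bases they share. The handling of reads that match several copies is not given in the sources used here, so the split of reads between the genes is uncertain. Looked at after these values were seen, the other tested members were Pira4, Pira6, Pira7, Pira11 and the inhibitory receptor Pirb, of which none was called. Pira4 stood at 2.44 CPM in WT and 6.72 in CCR2KO (log2 change 1.45, adjusted p = 0.299), and Pira7 at 2.86 and 6.54 CPM (1.19, adjusted p = 0.477). Pirb stood at 143 CPM in WT and 155 in CCR2KO (0.12, adjusted p = 0.92).

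The promoter of Ctsl is shown as that of a called lysosomal gene, since many lysosomal genes carry the letters CACGTG, the core of the site of TFEB and related factors. The stretch is from RefSeq on GRCm38.p6, the 250 bases before the start on the minus strand at chr13:64370521-64370770, with CACGTG in capitals.
Ctsl: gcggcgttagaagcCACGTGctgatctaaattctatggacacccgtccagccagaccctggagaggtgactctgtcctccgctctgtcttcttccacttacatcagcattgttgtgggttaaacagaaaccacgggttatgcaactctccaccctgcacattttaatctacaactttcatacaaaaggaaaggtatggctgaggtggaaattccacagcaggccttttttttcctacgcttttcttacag
CACGTG reads the same on both strands and occurs in 6.02% of 32851 promoters over the same window. The longer TCACGTGA, which contains it, occurs in 0.785% and is not in this stretch. Neither set of letters is in the same window of Gusb, the other called lysosomal enzyme. They are also absent from the windows of the risen genes Lgals3, Dab2, Serpinb6a, Ctnnb1, Pira1 and Pira2. A link of the letters to the rise of Ctsl was not tested.

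A pair of the largest changes call for care. Naip6, a sensor of the inflammasome, was called higher (adjusted p = 7.712e-05) from 3 reads in all WT alveolar macrophages and 611 in CCR2KO, where 4.89% of cells held one. None of its 3 near copies tested was called. Naip1 stood at 1.504 CPM in WT and 3.57 in CCR2KO (log2 change 1.24, adjusted p = 0.845). Naip2 stood at 40.2 and 57.2 CPM (log2 change 0.51, adjusted p = 0.565) and Naip5 at 30.7 and 26.8 CPM (-0.19, adjusted p = 0.922), and the split of reads among them is uncertain. Scgb3a2, a secretoglobin of airway club cells, was called higher, but 1 cell held 87.3% of its CCR2KO reads, and without CCR2KO replicate 6 it did not pass (adjusted p = 0.163).

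The signs counted in each list below stand beside those of all genes. Over all 11712 genes tested, 5970 changes were positive and 5742 negative. Among the 1696 with at least 100 CPM in 1 genotype, 967 were positive and 729 negative. Of the genes of lysosome and cathepsins, 1 of 22 rose (Ctsl), 0 fell, and 18 had a positive change, with a median of 0.21, or 0.09 without the cells that held 3 or more monocyte or interstitial genes. Just short of the threshold were Lgmn, the protease legumain, with 319 ± 56.7 CPM in WT and 564 ± 216 in CCR2KO (log2 change 0.82, adjusted p = 0.0501), and Grn, progranulin, with 657 ± 47.9 and 856 ± 125 CPM (0.38, adjusted p = 0.0652). Ctsd and Psap, the most abundant by reads, had changes of 0.30 (adjusted p = 0.636) and 0.25 (adjusted p = 0.763). Of the lipid-associated and scar-associated genes 1 of 19 rose (Lgals3), 15 were positive, and the median was 0.25, or 0.08 without those cells. Spp1, the matrix protein osteopontin, had tags at 2182, 5358 and 10370 CPM in WT and 4084, 7094 and 24680 CPM in CCR2KO (log2 change 1.04, SE 0.38, adjusted p = 0.386). With same-numbered tags, not known to be paired, taken as blocks, Spp1 passed the threshold. Ctsk, the collagen-degrading cathepsin K, stood at 1525 ± 453 and 2876 ± 1176 CPM (0.92, adjusted p = 0.0616), and Gpnmb, a glycoprotein of stressed macrophages, at 504 ± 109 and 710 ± 304.9 CPM (0.49, adjusted p = 0.573).

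No gene of the lipid and particle lists was called. Of 19 genes of lipid and surfactant handling 17 had a positive change, with a median of 0.16, or 0.06 without the cells that held 3 or more monocyte or interstitial genes. Lpl, the lipase that frees fatty acids from lipoproteins, was 1645 ± 291 CPM in WT and 2219 ± 346 in CCR2KO (log2 change 0.43, SE 0.11, adjusted p = 0.129), and the fatty acid carrier Fabp5 was 1813 ± 576 and 1888 ± 964 CPM. With same-numbered tags, not known to be paired, taken as blocks, Lpl passed the threshold. Of 17 scavenger and particle receptors 12 were positive (median 0.06). Msr1, a scavenger receptor for silica and modified lipoproteins, stood at 261 ± 83.4 and 423 ± 182 CPM (0.70, adjusted p = 0.385), and the β-glucan receptor Clec7a at 2169 ± 936 and 1789 ± 412 CPM. In 16 genes of cholesterol synthesis and uptake 13 were negative (median -0.25). Among 17 growth factor receptors and regulators the median was -0.05, and Csf2rb, the shared chain of the GM-CSF receptor, stood at 398 ± 78.8 and 378 ± 70.0 CPM.

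Inflammatory genes had mostly negative changes, none of them called. All 25 genes of the type I interferon response were negative, with a median of -0.70 and 10 at an unadjusted p under 0.05. Without the cells that held 3 or more monocyte or interstitial genes the median was -0.67. Over all 11712 genes tested, 5742 were negative and 977, in either direction, had an unadjusted p under 0.05. Isg15, a ubiquitin-like modifier, was 61.6 ± 25.3 CPM in WT and 21.5 ± 13.9 in CCR2KO (log2 change -1.51, adjusted p = 0.238). Ifi27l2a, also induced by interferon, was 540 ± 266 and 334 ± 184 CPM (-0.70, adjusted p = 0.615). The same list had a median of -1.45 in interstitial macrophages, -0.58 in B cells and -1.12 in all other kept cells. In MHC class II genes, which present antigen, 8 of 9 were negative (median -0.81, and -0.29 without the cells that held 3 or more monocyte or interstitial genes). Their invariant chain Cd74 had tags at 200.4, 864 and 1216 CPM in WT and 68.8, 345 and 1117 CPM in CCR2KO (-0.92, adjusted p = 0.495). Of 19 genes of interferon gamma and MHC class I 15 were negative (median -0.13), with B2m, the light chain of MHC class I, at 5779 ± 2320 and 4382 ± 2041 CPM.

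In the inflammasome and interleukin-1 list 13 of 16 changes were negative (median -0.15). Il1b, the cytokine that inflammasomes release, was 453 ± 291 CPM in WT and 279.7 ± 181 in CCR2KO (log2 change -0.70, adjusted p = 0.746), and Il18 was 338 ± 67.1 and 303.5 ± 53.3 CPM. Of 17 TNF and NF-kB genes 13 were negative (median -0.22, and -0.03 without the cells that held 3 or more monocyte or interstitial genes), with Nfkbia, the inhibitor of NF-kB, at 437 ± 90.0 and 332 ± 52.8 CPM (-0.40, adjusted p = 0.315). Inflammatory chemokines were split, 8 positive and 9 negative of 17 (median -0.26, and 0.17 with DESeq2 or 0.14 without those cells). Cxcl2, which draws neutrophils, was 1596 ± 851 and 1060.0 ± 564 CPM (-0.59, adjusted p = 0.706), and Ccl6 8450 ± 1755 and 9735 ± 2589 CPM. Immediate early genes, which digestion of tissue can induce, had 14 of 17 negative changes (median -0.14).

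Genes linked to fibrosis went both ways with none called, 7 of 17 positive and 10 negative (median -0.21). Vegfa, an angiogenic factor, was nearest to the threshold, with tags at 8.90, 33.1 and 54.5 CPM in WT and 1.03, 9.71 and 11.3 CPM in CCR2KO (log2 change -2.08, SE 0.46, adjusted p = 0.0519). Timp1, an inhibitor of matrix proteases, was 232 ± 202 and 64.7 ± 57.4 CPM (-1.85, adjusted p = 0.315), Inhba, an activin subunit, 54.4 ± 34.6 and 15.98 ± 9.70 CPM (-1.77, adjusted p = 0.283), and Fn1, fibronectin, 648 ± 248 and 756 ± 200.8 CPM (0.22, adjusted p = 0.86). In the list of alternative activation, where 11 of 15 genes in the tables could be tested, 6 were positive, and Retnla, a marker of type 2 immunity, was at 11.3 ± 7.05 and 90.3 ± 210 CPM (2.98, adjusted p = 0.178). The 10 complement genes were evenly split. C1qc had tags at 9.43, 31.3 and 315 CPM in WT and 88.2, 202 and 612 CPM in CCR2KO (2.08, SE 0.59, adjusted p = 0.203). It passed only when same-numbered tags, not known to be paired, were taken as blocks.

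The remaining lists had no called gene either. Beside their counts of signs, 5970 of all 11712 genes tested had a positive change. So did 967 of the 1696 with at least 100 CPM in 1 genotype. Iron storage genes stood nearly still, with Fth1, the ferritin heavy chain, at 23840 ± 1577 and 23900 ± 2942 CPM and Ftl1, the light chain, at 11630 ± 2446 and 12750 ± 3011 CPM. Of 21 genes of oxidative stress, iron and metals 14 were positive (median 0.09). Of 17 genes of glycolysis and hypoxia 10 were positive (median 0.06), with Gapdh at 1392 ± 292 and 1529 ± 297 CPM. Of 15 genes of endoplasmic reticulum and amino acid stress 11 were positive (median 0.26), with the chaperone Hspa5 at 1697 ± 279 and 1772 ± 174 CPM. Of 23 cell cycle genes 18 were positive (median 0.25), with Pcna, the replication clamp, at 300.2 ± 101 and 323 ± 84.3 CPM.

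**Figure D4:**
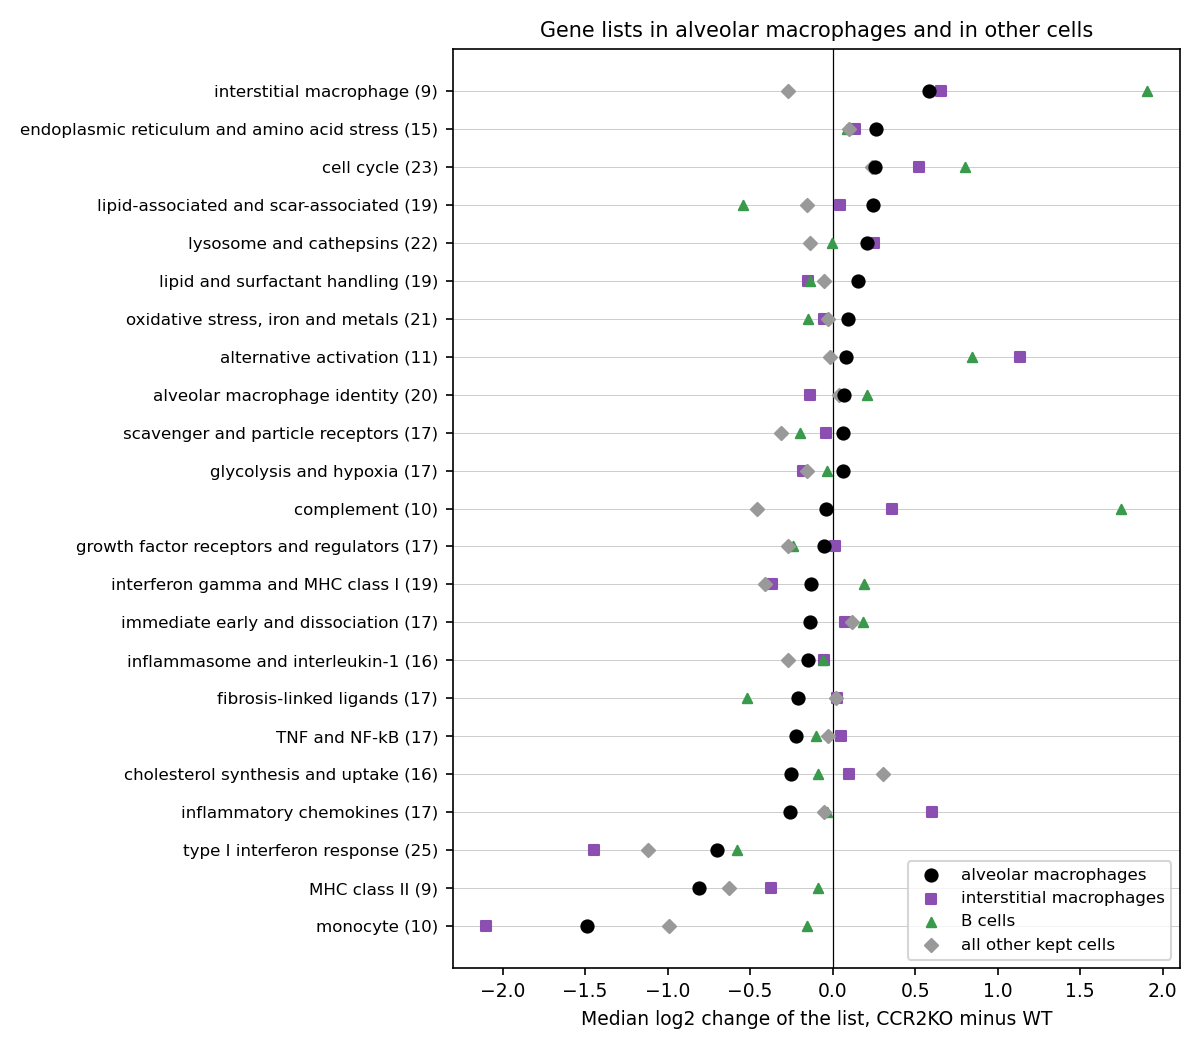
Median log2 change (CCR2KO minus WT, horizontal axis) of 21 pathway lists and the monocyte and interstitial macrophage lists in alveolar macrophages (black circles), interstitial macrophages (purple squares), B cells (green triangles) and all other kept cells (grey diamonds); the number of genes tested in alveolar macrophages is in brackets. Of the lists plotted, the monocyte, MHC class II and type I interferon lists have the lowest medians in alveolar macrophages, -1.49, -0.81 and -0.70, and are below 0 in the other cells as well.

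To ask whether these differences belong to alveolar macrophages, the change between genotypes was compared with that in interstitial macrophages of the same tags. Of 13047 genes 0 passed (0.0% called), with 1 (the rule gene F7, which carries no test here) when doublet calls were left out. In interstitial macrophages alone 33 genes were higher and 47 lower. Ctsl had changes of 0.81 and 0.27 in the 2 classes (adjusted p of the difference 0.547), Cd99 of -0.94 and -0.46 (0.799), and Lgals3 of 0.35 and -0.18 (0.595). A difference between the classes was therefore not shown for any gene named here.

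States of the alveolar macrophages were counted per tag as the share of cells with reads of a short gene list. Cycling cells, with 3 or more of 7 mitotic genes, were 5.79%, 13.5% and 29.6% (lowest, median, highest tag) in WT and 6.94%, 16.6% and 24.4% in CCR2KO, with means that differed by 0.603 points (two-sided exact permutation p = 0.858, adjusted over the 3 states 0.858). Cells with 3 or more scar-type genes (Mmp12, Gpnmb, Ccl24, Inhba, Arg1 and Spp1) were 38.1 ± 8.12% in WT and 30.2 ± 6.38% in CCR2KO (adjusted exact permutation p = 0.131). After thinning these shares were 12.2 ± 7.11% and 13.3 ± 6.72%, so the sign of the difference turned with thinning. Cells with at least 2 of the 3 C1q genes were 5.88%, 10.7% and 24.0% in WT and 4.81%, 17.01% and 43.7% in CCR2KO (means 11.7 ± 5.94% and 20.2 ± 14.9%, adjusted exact permutation p = 0.207). The C1q share was 24.0% in WT tag 5 and above 30% in CCR2KO tags 4, 5 and 6. After thinning it was 4.98 ± 4.10% and 13.9 ± 12.5%.

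The spread between tags within a genotype was wide for many genes. Over the listed genes with a mean of at least 100 CPM, the median ratio of the highest to the lowest tag was 2.2 in WT and 2.25 in CCR2KO. Mmp12, the macrophage elastase, went from 11.2 CPM in WT tag 7 to 897 in tag 4, and from 1.62 CPM in CCR2KO tag 7 to 711 in tag 3. Cxcl1, a neutrophil chemokine, ran from 9.81 to 301.3 CPM in WT and from 9.30 to 237 in CCR2KO. In both genotypes Cxcl1 was lowest in tag 8 and highest in tag 3.

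Some genes of the identity list were highest in the same tag number in both libraries, and others were not. Krt79 was highest in tag 3 of WT (227 CPM) and of CCR2KO (289 CPM), and Siglecf likewise (121 and 178 CPM). Car4 was highest in WT tag 1 and CCR2KO tag 7, and Chil3 in WT tag 6 and CCR2KO tag 7. Fabp1 was 313 CPM in WT tag 1 and between 42.6 and 101 CPM in tags 4 to 9, and in CCR2KO it was 367 CPM in tag 3 and 7.75 CPM in tag 5. Fdps, a synthase of isoprenoid precursors, was 30.0 CPM in WT tag 2 and 386 in tag 8, and 11.0 CPM in CCR2KO tag 2 and 207 in tag 6. Msmo1, another enzyme of the pathway, was lowest in tag 1 (29.4 CPM) and highest in tag 8 (278 CPM) of WT. Il1b was 64.4 CPM in WT tag 9 and 707 in tag 6, and was at or under 96.0 CPM in WT tags 7, 8 and 9. In CCR2KO the MHC class II gene H2-Eb1 was 7.95 CPM in tag 5 and 331 in tag 8, and Ifitm3, an interferon-induced membrane protein, 24.8 CPM in tag 6 and 468 in tag 7. What sets a tag apart, whether day, animal or handling, is not given.

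**Figure D5:**
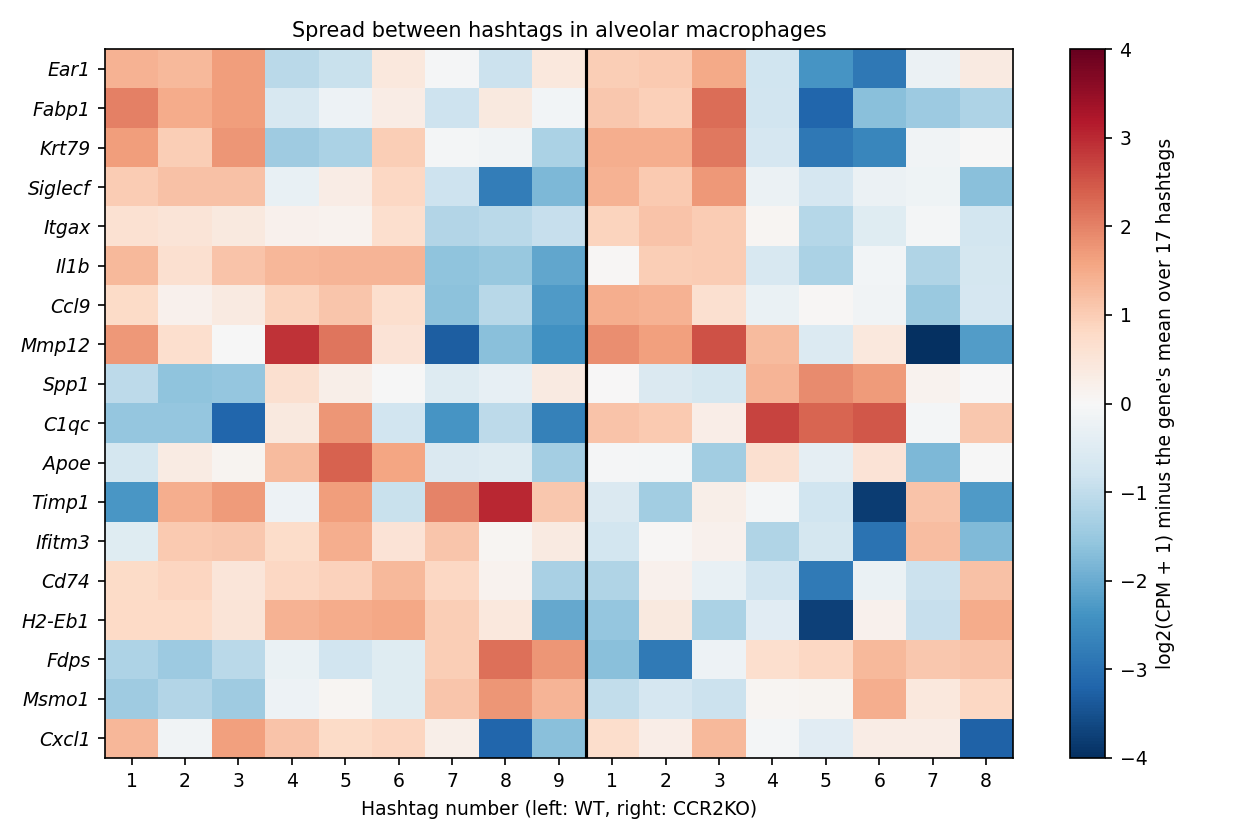
Level of 18 genes, chosen after their values were seen, in each tag, as log2(CPM + 1) minus the gene's mean over all 17 tags (red above, blue below that mean); WT tags 1 to 9 are left of the black line and CCR2KO tags 1 to 8 right of it. Fabp1, Krt79 and Siglecf are above their mean in tags 1 to 3 of both genotypes, and Spp1 and C1qc are highest in CCR2KO tags 4 to 6.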

How the data were processed

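Each of the 2 deposited tables holds whole-number counts for every gene in every cell, not normalized. Bowtie2 2.4.2, cutadapt 2.10, R 3.6.3 and GRCm38 are listed, per the submitters' processing notes. Their roles, annotation and the handling of molecular identifiers are not given in the sources used here, and the deposited counts are treated as reads. Intervals and floors (3 counts) cover counting error only. In all, 1213 value columns without a hashtag name were not used.

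Members were found by the rule and their reads summed per hashtag (at least 10 cells). Genotypes were compared with edgeR 4.0.16 (filterByExpr, TMM, quasi-likelihood test, Benjamini-Hochberg at 0.05), without a block. Correlations of same-numbered tags over 1586 genes were all positive, from 0.041 to 0.368, but not all above 0.1. The interaction fit had the hashtag as block. Shares were tested by exact permutation over all 24310 arrangements of the tags. With 1 tag left out there were 12870 or 11440, and the block of same-numbered tags used 256 sign flips. The fit was first tested on simulated data with known changes. Scrublet (scanpy 1.11.5, expected rate 0.06) marked scores above 0.25 in both libraries, since its automatic threshold marked 2.41% of WT and 0% of CCR2KO cells. Alternatives included DESeq2 1.42.0, other factors, filters, rule limits, thinning and leaving out each tag.

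The members and the gene lists were chosen with earlier results of these data known. Named were the rule and identity genes, the 12 largest called changes per direction (at least 100 CPM and a read in 10% of cells), called and most abundant list genes, the 10 most variable list genes per genotype and the 10 highest over interstitial macrophages; other named genes were chosen after their values were seen.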

Additional observations from a re-analysis of the deposited data

Results flagged for a closer look

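Among the named genes, 120 groups of tags were checked for a single tag that stood far from the rest of its genotype, and 13 were marked. By chance about 1 in 20 such groups would be marked. In WT these were Atp6v1b2 (315.6 CPM in tag 1), Car4 (1631 CPM in tag 1), Cd99 (351.2 CPM in tag 6), Chil3 (15390.0 CPM in tag 6), H2afj (172.2 CPM in tag 7), Rpl39 (1591 CPM in tag 7) and Naip6, whose 3 reads all lay in tag 6 (0.3013 CPM). In CCR2KO they were Ccr2 (5.991 CPM in tag 5), Fabp1 (366.8 CPM in tag 3), Perp (243.4 CPM in tag 7) and Scgb3a2 (350.0 CPM in tag 6), each the highest tag. At the low end were Cd99 in CCR2KO tag 3 (71.94 CPM) and Rps29 in CCR2KO tag 7 (751.8 CPM), the tag with the fewest alveolar macrophages (33). The causes were not tested.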

How the results depend on the processing

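The difference in the share of all kept cells was -1.44 points with at most 1 epithelial gene allowed (adjusted exact permutation p = 0.0179). It was -1.76 with the replicate block of same-numbered tags (adjusted exact sign-flip p = 0.0469), and -2.03 to -1.20 with 1 tag left out. It was smaller after thinning before the rule, -0.661 (adjusted exact permutation p = 0.3665). It was -1.12 with 4 markers required (0.2304), -1.225 with stricter cell filters (0.3283) and -1.21 with no limit on epithelial genes (0.1747). For the share of leukocytes it was 0.271 with 4 markers required, -1.98 with at most 1 epithelial gene (0.0402), 2.33 with no limit on those genes, 1.52 with stricter cell filters and 2.35 after thinning, and -0.823 to 0.680 with 1 tag left out. The cycling difference was -0.350 after thinning and -0.668 to 2.31 with 1 tag left out, and that of scar-type genes -9.05 with 4 markers (0.0191), 1.18 after thinning and -9.18 to -6.60 with 1 tag left out. Beside 14 higher and 28 lower genes, DESeq2 gave 43 and 63, upper quartile factors 7 and 43, a mean of at least 100 CPM 37 and 53, at most 1 epithelial gene 0 and 12 (0 higher by edgeR), no such limit 16 and 43, no count filter 8 higher, thinning 9 higher, and leaving out cells with 3 monocyte or interstitial genes 3 and 11. Leaving out cells with 3 markers of any other type kept only 7 WT and 4 CCR2KO tags and gave 0 and 0. Same-numbered tags are not known to be paired. The replicate block gave 17 and 27. Under it Atp6v1b2 (adjusted p = 0.109), H2afj (0.0798), Ly6c2 (0.0604) and Scgb3a2 (0.219) missed the threshold, C1qc (0.000925), Lpl (0.0282) and Spp1 (0.00404) passed it, and the other genes of the naming rule kept their side. The block also turned the median of the cholesterol list from -0.25 to 0.08. With 1 tag left out the counts were 6 to 18 and 20 to 42. The class difference passed for 1 gene with doublet calls left out, and for 0 to 1 with 1 tag left out. The causes were not tested. Of the 42 called genes, 25 were among the genes of the naming rule. Over all settings, 187 of 789 refits of these 25 missed the threshold and 0 turned direction. Depth limits genes under a few CPM.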
